A study of Mus musculus with 14 samples.

Results

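A set of 7 genes known from neuroendocrine cells and Schwann cells were followed through 14 libraries of mouse lung RNA: Uchl1, Chga, Scg5, Resp18, Sox10, S100b and Gfra3. They were taken by gene symbol, and each symbol matched 1 row, so the set held 7 of the 54347 genes in the tables. All mice were of the C57BL/6 strain, and all 14 lungs had been exposed to intranasal Alternaria alternata, an extract of a mould that causes allergic inflammation, with 2 mg given in 40 µl on each of 4 days. The libraries formed 3 experiments. In the bone marrow chimeras, mice whose own genotype was wild type (WT, n = 2) or human JAK1 gain of function (GOF, n = 2) were irradiated and given 10000000 live WT marrow cells each. The marrow donors were thus WT in both groups, and lung cells that do not come from marrow were the recipient's own. The labels do not say in which cells of the recipient the human JAK1 was active. In the intrathecal experiment, WT mice received resiniferatoxin (RTX, n = 3) at 25 ng per mouse on each of 2 days, or 10 µl saline as vehicle (n = 2). In the subcutaneous experiment, WT mice (n = 3) received rising daily doses of RTX, 30, then 70, then 100 µg/kg, or 100 µl saline (n = 2). RTX activates TRPV1, the capsaicin receptor, and destroys nerve fibres and neurons that carry it. By the intrathecal route it was given to remove spinal visceral afferents, and by the subcutaneous route to remove vagal and spinal ones. Age was not given in the sources used here, and the labels do not state that each library was another mouse, and p-values therefore cover only sample-to-sample spread, part of which may be technical.

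Pulmonary neuroendocrine cells are rare airway epithelial cells, often clustered and innervated, that store peptides and amines in dense-core granules and release them on stimulation. Chromogranins and related granins are cargo of such granules, and prohormone convertases process the peptides inside them. Schwann cells ensheathe the peripheral axons that reach the lung. Their lineage depends on the transcription factor SOX10, and they carry the calcium-binding protein S100B. GFRA3 is the receptor chain for artemin, a ligand of the GDNF family that signals through RET and supports sensory and sympathetic neurons. The cell bodies of vagal and spinal sensory neurons lie in ganglia outside the lung.

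Libraries held 18198900 to 24393000 estimated counts, so 1 count was worth 0.0410 to 0.0549 CPM (counts per 1000000 of the library's total). A floor of 3 counts was worth 0.123 to 0.165 CPM, which covers counting error only, since amplified reads with no molecular identifier do not count molecules one by one. The labelled tissue was checked by Sftpc, the surfactant gene of alveolar type 2 cells, at 5453 to 10323 CPM, and by Scgb1a1, the club cell secretoglobin, at 4092 to 10900 CPM. Mouse Jak1 had 256 and 281 CPM with WT hosts against 204 and 191 with GOF hosts, and counts of the mouse gene do not check a human transgene. Xist had 122 and 132 CPM with WT hosts against 62.9 and 73.2 with GOF hosts, without overlap, and 0.913 to 5.11 CPM in the 10 libraries of the RTX experiments. The chimeras thus stood apart from the RTX experiments in this transcript of the inactive X chromosome, so levels set side by side across experiments are a description only. Within the chimeras the WT and GOF hosts parted in it too. In every GOF against WT value below, host genotype and what lies behind the Xist difference cannot be told apart. Its part in those values was not tested. Xist also did not overlap between RTX and vehicle. It was at 3.70 and 3.01 CPM after intrathecal vehicle against 0.993, 1.11 and 2.45 after RTX. By the subcutaneous route it was at 0.913 and 1.01 CPM after vehicle against 1.23, 5.06 and 5.11 after RTX. RTX and what lies behind these Xist differences cannot be told apart either, and the latter's part in the RTX values was not tested. The trace transcript Rps3a2 was above 2 CPM in WT recipient 1, both intrathecal vehicle libraries and subcutaneous RTX libraries 2 and 3. Hmga2 was above 2 CPM in WT recipient 2, both GOF recipients, all 3 intrathecal RTX libraries and subcutaneous vehicle library 1, and subcutaneous vehicle library 2 and RTX library 1 were high in neither. In the intrathecal experiment this split coincided with the groups, so RTX and library state cannot be told apart there.

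The 7 genes were scarce in whole lung. Per kilobase of annotated exon, the median level over the 14 libraries was 2.72 CPM for Uchl1, 0.944 for S100b, 0.448 for Resp18, 0.226 for Scg5, 0.0543 for Chga, 0.0486 for Gfra3 and 0.0319 for Sox10. In counts, Uchl1 had 67 to 129 per library and S100b 12 to 75, whereas Resp18 had 1 to 22, Scg5 2 to 16, Chga 1 to 9, Sox10 0 to 12 and Gfra3 0 to 9. Sox10 was at 0 in 3 libraries and Gfra3 in 4. The filter on low counts passed 4 of 7 members in the chimera experiment and in the intrathecal one (Uchl1, Scg5, Resp18 and S100b in each) and 2 of 7 in the subcutaneous one (Uchl1 and S100b). In bulk lung, fewer cells of a type and less RNA per cell cannot be told apart.

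**Figure D1:**
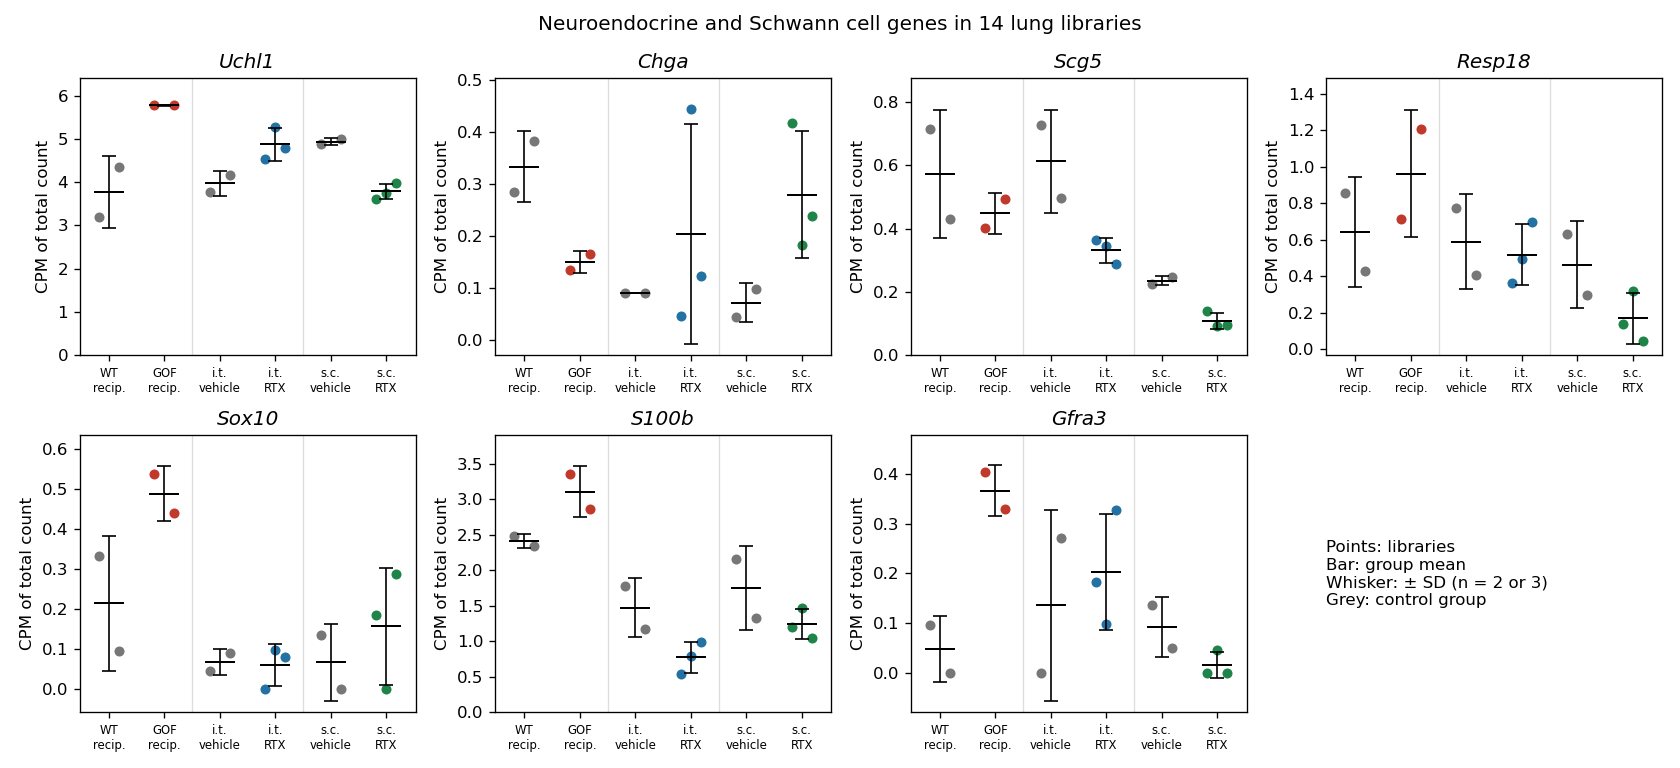
CPM of the total count (y axis, linear) of each of the 7 genes in the 6 groups (x axis), with 1 point per library, the group mean as a bar and ± SD as whiskers (n = 2 or 3). Uchl1 lay between 3.19 and 5.78 CPM in all libraries, and Chga, Sox10 and Gfra3 stayed under 0.54 CPM.

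No member passed an adjusted p of 0.05 in any comparison. edgeR's quasi-likelihood test called 0 of 4 tested members between GOF and WT recipients, where it called 0.717% of the 17298 genes tested. There 1 member, Uchl1, was under an unadjusted p of 0.05, as were 11.6% of all genes. It called 0 of 4 between intrathecal RTX and vehicle, where 0.311% of 17360 genes were called. There 1 member, S100b, was under an unadjusted p of 0.05, as were 11.5% of all genes. Between subcutaneous RTX and vehicle it called 0 of 2, with 0% of 17363 genes called and 0 members under an unadjusted p of 0.05, although 18.2% of all genes tested were. For the difference between the 2 RTX effects, tested in 1 fit of 10 libraries, it called 0 of 4, where 0.0556% of 17972 genes were called. There 1 member, Uchl1, was under an unadjusted p of 0.05, as were 15.2% of all genes. DESeq2 and limma voom also called 0 members in each of these comparisons. DESeq2 put 0, 0, 0 and 1 members under an unadjusted p of 0.05 in the same order, and limma voom 1, 1, 0 and 1. A fit without the filter, which tested all 7, called 0 members as well, while it called 2.81%, 2.27%, 2.81% and 0.475% of all genes in the same order.

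**Figure D2:**
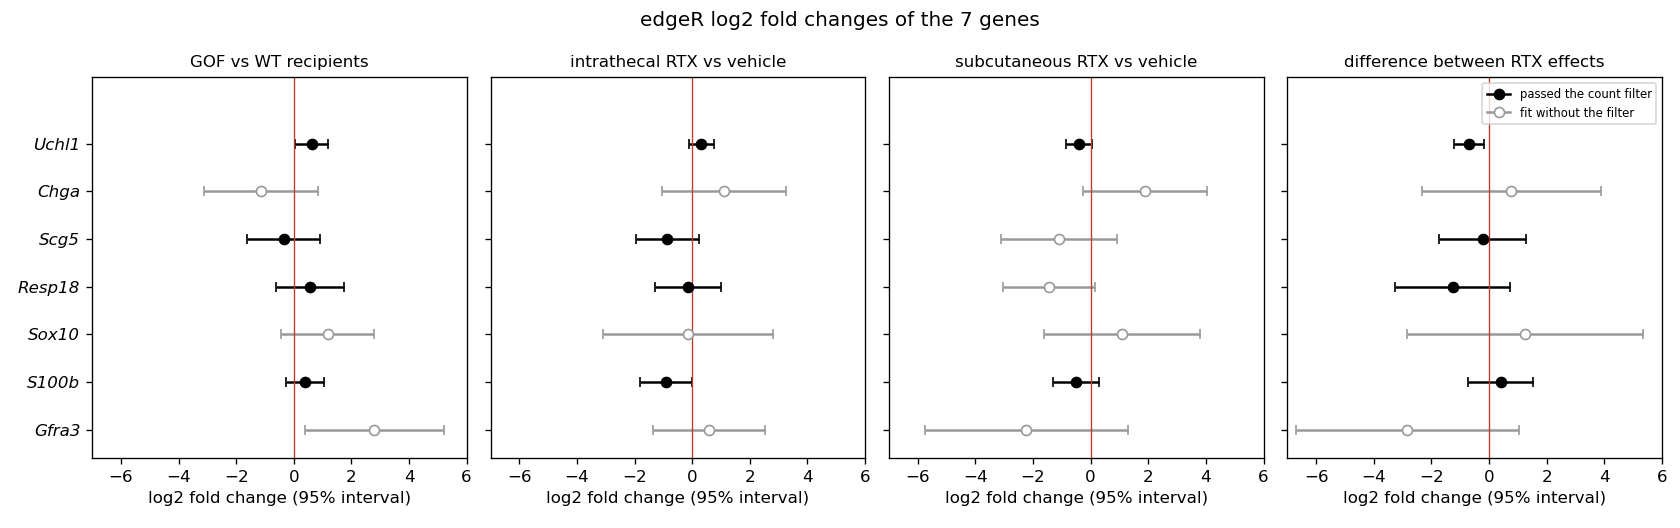
Log2 fold change (x axis) with its 95% interval from edgeR for each gene (y axis) in the 3 comparisons and for the difference between the RTX effects (subcutaneous minus intrathecal). Filled points passed the filter on low counts and open points come from the fit without it. The intervals of Uchl1 are the narrowest in each panel, and those of Sox10 and Gfra3 span several log2 units.

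Among the neuroendocrine genes, Uchl1 had the most counts. It encodes a ubiquitin C-terminal hydrolase that is abundant in neurons and neuroendocrine cells, and lies on GRCm38 chromosome 5 from 66676091 to 66687234 on the plus strand. The antisense gene Uchl1os shares 295 exon bases with it (18.1% of its exon length) and had 0 counts in every library. In the chimeras Uchl1 had 3.19 and 4.35 CPM with WT hosts against 5.78 and 5.77 with GOF hosts. Both GOF libraries were above both WT libraries, with a log2 fold change of 0.62 ± 0.26 (SE; 95% interval 0.05 to 1.19; edgeR adjusted p = 0.377). With the WT library of the same trace-transcript state alone as control, that is without WT recipient 1, the log2 value was 0.40 (edgeR adjusted p = 0.646), and without WT recipient 2 it was 0.88 (0.226), each with 1 library left in that group.

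After RTX the values of Uchl1 pointed in opposite directions by route. Intrathecal vehicle libraries were at 3.77 and 4.17 CPM and intrathecal RTX libraries at 4.54, 5.28 and 4.80 CPM, so every RTX library was higher (log2 fold change 0.31 ± 0.20, 95% interval −0.13 to 0.75; edgeR adjusted p = 0.582). Subcutaneous vehicle libraries were at 4.87 and 4.99 CPM and subcutaneous RTX libraries at 3.62, 3.76 and 3.97 CPM, so every RTX library was lower (log2 fold change −0.40 ± 0.19, 95% interval −0.84 to 0.05; edgeR adjusted p = 0.320). The difference between these effects was −0.70 ± 0.24 (95% interval −1.22 to −0.18; edgeR adjusted p = 0.224). With library state as a term in a fit of all 14 libraries, the intrathecal value moved to 0.06, the subcutaneous one to −0.25 and their difference to −0.31 (edgeR adjusted p = 0.906 for the difference). State coincided with group in the intrathecal experiment, so there the state effect is estimated from the other experiments. Within the state high in neither transcript, the single subcutaneous vehicle library was at 4.99 CPM and the single subcutaneous RTX library at 3.62 CPM.

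By group mean, Uchl1 ran from WT recipients (3.77 ± 0.822 CPM, SD, n = 2) through subcutaneous RTX (3.79 ± 0.178, n = 3), intrathecal vehicle (3.97 ± 0.280, n = 2), intrathecal RTX (4.87 ± 0.375, n = 3) and subcutaneous vehicle (4.93 ± 0.0843, n = 2) to GOF recipients (5.77 ± 0.00601, n = 2). The libraries of the 3 lowest groups overlapped from one neighbour to the next, as did those of intrathecal RTX and subcutaneous vehicle. The saline groups of the RTX experiments did not overlap with each other either, at 3.77 and 4.17 CPM against 4.87 and 4.99 CPM, although libraries of different experiments were not tested against each other. Sums of other tissue markers parted between groups in some of these comparisons. The summed level of 10 lung epithelial markers was 23758 to 32247 CPM after subcutaneous vehicle and 17127 to 19860 CPM after subcutaneous RTX. It was 21210 to 23390 CPM with WT hosts against 26573 to 28005 with GOF hosts. After intrathecal vehicle and RTX it overlapped, at 23198 to 26597 and 23825 to 28277 CPM. That of 6 lung endothelial markers was 2305 to 2535 CPM with WT hosts against 2775 to 2909 with GOF hosts, and overlapped in both RTX experiments. That of 16 heart muscle markers was 310 to 436 CPM with WT hosts against 687 to 695 with GOF hosts, with 9 of 16 past the threshold, among them Tnnt2, the cardiac troponin T gene, at 1.10 ± 0.14, and Pln, Myl7 and Sln at 1.34 to 1.51 (edgeR adjusted p = 0.0114 to 0.0183). Their part in the Uchl1 values was not tested.

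Across the 14 libraries, after each experiment's mean was subtracted, the genes most like Uchl1 among 14063 compared were Ndufs5, a subunit of respiratory complex I, Wtip, a LIM domain protein, and Cisd1, an iron-sulphur protein of the outer mitochondrial membrane. Their Pearson correlations with it were 0.90, 0.89 and 0.89. These are the highest of many values from the same libraries and are given as a description.

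Chga and Scg5 both encode proteins of the dense-core granule, and their values pointed in opposite directions after subcutaneous RTX. This rests on summed counts of 18 after RTX against 3 after vehicle for Chga and 7 against 10 for Scg5. Neither gene passed the filter in that comparison. The 250 bases upstream of the RefSeq start (GRCm38.p6) of Chga and Scg5 are shown to set the promoters of these genes side by side. A link of these sequences to the counts was not tested. Capitals mark TGACG, a half-site of the cyclic AMP response element and not the whole element, and CAGCTG, an E-box, each searched on both strands.
Chga, chr12:102554691-102554940, plus strand: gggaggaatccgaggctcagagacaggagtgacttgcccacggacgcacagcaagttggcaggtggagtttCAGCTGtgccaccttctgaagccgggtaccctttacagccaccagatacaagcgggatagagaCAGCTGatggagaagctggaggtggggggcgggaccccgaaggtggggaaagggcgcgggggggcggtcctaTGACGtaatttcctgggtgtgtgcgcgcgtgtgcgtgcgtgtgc
Scg5, chr2:113829092-113829341, minus strand: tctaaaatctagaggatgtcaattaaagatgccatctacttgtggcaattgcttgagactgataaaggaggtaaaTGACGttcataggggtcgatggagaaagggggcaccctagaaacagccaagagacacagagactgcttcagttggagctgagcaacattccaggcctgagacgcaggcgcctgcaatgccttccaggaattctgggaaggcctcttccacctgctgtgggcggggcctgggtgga
TGACG occurred 1 time in each, with its outermost base 44 bases before the start in Chga and 175 bases before it in Scg5, and 17.8% of 32851 such windows held it. CAGCTG occurred 2 times in Chga and 0 times in Scg5, and 4271 of the 32851 windows held it. A match describes the letters and is not evidence of binding. RefSeq windows were found for 5 of the 7 genes.

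Chga, chromogranin A (chromosome 12, 102554969 to 102565028, plus strand), passed the filter in no comparison. It had 6 and 8 counts in WT recipients and 3 and 3 in GOF recipients, 2 and 2 after intrathecal vehicle against 1, 9 and 3 after intrathecal RTX, and 1 and 2 after subcutaneous vehicle against 9, 4 and 5 after subcutaneous RTX. The RTX libraries of the subcutaneous experiment were thus all above its vehicle libraries, and the intrathecal groups overlapped. The ratio of summed counts per total in the subcutaneous experiment was 3.96, with an exact interval of 1.16 to 21.0 that covers counting error only and rests on 18 against 3 counts. In the fit without the filter its log2 fold change was 1.88 ± 1.06 (edgeR adjusted p = 0.486).

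Scg5, secretogranin V, a chaperone of a prohormone convertase (chromosome 2, 113776362 to 113829121, minus strand), had lower counts in every RTX library than in the vehicle libraries of the same experiment. It had 16 and 11 counts after intrathecal vehicle and 8, 7 and 7 after intrathecal RTX, or 0.728 and 0.498 against 0.363, 0.345 and 0.287 CPM (log2 fold change −0.86 ± 0.49, 95% interval −1.96 to 0.23; edgeR adjusted p = 0.536). It had 5 and 5 counts after subcutaneous vehicle and 3, 2 and 2 after subcutaneous RTX, too few to be tested under the filter. The ratio of summed counts per total was 0.538 in the intrathecal experiment (exact counting interval 0.292 to 0.982) and 0.462 in the subcutaneous one (0.149 to 1.34). In the chimeras the groups overlapped, at 15 and 9 counts with WT hosts and 9 and 9 with GOF hosts (log2 fold change −0.34 ± 0.58; edgeR adjusted p = 0.869). Across experiments, which were not tested against each other, both subcutaneous groups (0.109 ± 0.0264 and 0.236 ± 0.0152 CPM, SD, n = 3 and 2) of Scg5 lay below all other groups.

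Resp18, a secretory protein of peptide-producing endocrine cells (chromosome 1, 75272199 to 75278415, minus strand), overlapped between the groups of all 3 experiments. The antisense gene Gm28902 shares 40 exon bases with it and had 0 counts. It had 18 and 9 counts with WT hosts and 16 and 22 with GOF hosts (log2 fold change 0.57 ± 0.54, 95% interval −0.60 to 1.75; edgeR adjusted p = 0.743). Intrathecal vehicle libraries had 17 and 9 counts and RTX libraries 8, 10 and 17 (−0.16 ± 0.51, 95% interval −1.31 to 0.99; edgeR adjusted p = 0.937). Subcutaneous vehicle libraries had 14 and 6 counts and RTX libraries 3, 7 and 1. The groups overlapped because RTX library 2 exceeded vehicle library 2. The ratio per total was 0.363, with an exact interval of 0.157 to 0.795 that covers counting error only. In the fit without the filter the log2 fold change was −1.44 ± 0.79 (95% interval −3.03 to 0.16; edgeR adjusted p = 0.463).

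Among the Schwann cell genes, S100b had the most counts. It lies on chromosome 10 from 76253853 to 76261159 on the plus strand and shares no exon bases with Dip2a, the gene that overlaps it on the other strand. Besides glia, fat cells and cartilage cells are known to make it. Intrathecal vehicle libraries were at 1.77 and 1.18 CPM and RTX libraries at 0.545, 0.790 and 0.984 CPM. Every RTX library was lower, and the log2 fold change was −0.90 ± 0.40 (95% interval −1.80 to −0.01; edgeR adjusted p = 0.433). With library state as a term the value was −1.08 (edgeR adjusted p = 1), where the state effect is estimated from the other experiments.

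Subcutaneous vehicle libraries were at 2.17 and 1.33 CPM of S100b and RTX libraries at 1.21, 1.47 and 1.05 CPM, so the groups overlapped (log2 fold change −0.51 ± 0.35, 95% interval −1.31 to 0.29; edgeR adjusted p = 0.465). Without vehicle library 1 the value was −0.12. The difference between the RTX effects was 0.40 ± 0.52 (95% interval −0.73 to 1.54; edgeR adjusted p = 0.750). In the chimeras S100b had 2.48 and 2.34 CPM with WT hosts against 3.36 and 2.86 with GOF hosts, without overlap (0.38 ± 0.30, 95% interval −0.28 to 1.04; edgeR adjusted p = 0.690). Across experiments, which were not tested against each other and which differ in Xist as given above, the libraries of both chimera groups were above those of the other groups in S100b, and those of the intrathecal RTX group were below.

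The summed level of 10 fat markers was 47.8 to 75.4 CPM with WT hosts against 139 to 215 with GOF hosts, with 8 of 8 tested markers positive and 0 past the threshold. After intrathecal vehicle it was 68.2 to 70.9 CPM and after intrathecal RTX 37.5 to 72.7 CPM. Adipoq, the fat hormone adiponectin, had 34 to 300 counts per library over all groups. The summed level of 12 cartilage markers was 32.2 to 57.2 CPM after intrathecal vehicle and 30.0 to 45.8 CPM after intrathecal RTX, and Acan, the cartilage proteoglycan, had at most 6 counts in any library. The part of fat or cartilage in the S100b values was not tested.

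Sox10, the transcription factor of the Schwann lineage (chromosome 15, 79154908 to 79165240, minus strand), passed the filter in no comparison. WT recipients had 7 and 2 counts and GOF recipients 12 and 8, a ratio per total of 2.30 (exact counting interval 1.00 to 5.73). In the fit without the filter its log2 fold change was 1.17 ± 0.83 (edgeR adjusted p = 0.798). Intrathecal vehicle libraries had 1 and 2 counts and RTX libraries 0, 2 and 2, all under the floor of 3, so no difference was detectable at this depth. Subcutaneous vehicle libraries had 3 and 0 counts and RTX libraries 4, 0 and 6. Melanocytes are another SOX10 lineage. The summed level of 6 melanocyte markers was 18.6 to 20.6 CPM after subcutaneous vehicle and 28.0 to 30.7 CPM after subcutaneous RTX, with 0 of 3 tested past the threshold. Mitf, a transcription factor that mast cells and macrophages also make, held 93.4% of this sum and was at 0.60 ± 0.10 on the log2 scale (edgeR adjusted p = 0.100), whereas the pigment cell genes Pmel and Mlana were at −0.07 ± 0.57 and −0.04 ± 0.58. Tyr, the defining enzyme gene of pigment cells, had at most 2 counts in any library. Their part in the Sox10 counts was not tested.

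Gfra3, the artemin receptor chain (chromosome 18, 34689898 to 34720387, minus strand), also passed the filter in no comparison. WT recipients had 2 and 0 counts and GOF recipients 9 and 6, so both GOF libraries were higher. The ratio per total was 7.75, with an exact counting interval of 1.80 to 69.9 on 15 against 2 counts. In the fit without the filter the log2 fold change was 2.80 ± 1.24 (edgeR adjusted p = 0.353). Intrathecal vehicle libraries had 0 and 6 counts and RTX libraries 4, 2 and 8. Subcutaneous vehicle libraries had 3 and 1 counts and RTX libraries 0, 1 and 0, all at or under the floor. Zero counts in 21542700 and 20886900 allow levels of up to 0.139 and 0.144 CPM.

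Counted over all 7 members, the 2 groups did not overlap in 5 between GOF and WT recipients (4 higher and 1, Chga, lower), in 3 between intrathecal RTX and vehicle (1 higher, 2 lower) and in 4 between subcutaneous RTX and vehicle (1 higher, 3 lower). The third lower member of the last comparison was Gfra3, whose nearest libraries had 1 count each and parted only by library depth, so that in counts 3 of 7 did not overlap there. Of all genes with at least 1 count, 34.4%, 23.2% and 28.1% did not overlap in these comparisons. By direction, 15.5% of genes were higher and 18.9% lower without overlap in GOF recipients, 10.3% and 12.9% after intrathecal RTX, and 14.7% and 13.5% after subcutaneous RTX. Among the tested members the median log2 fold change was 0.48 in GOF recipients (4 members) and −0.51 after intrathecal RTX (4 members). After subcutaneous RTX it was −0.45, from 2 members alone, Uchl1 and S100b. Medians over all genes tested were 0.00, 0.01 and −0.00 in the same order. With so few members, these medians do not describe the set of 7.

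The wider lists for these cell types also held no gene past the threshold. Of 28 listed neuroendocrine genes 27 matched the tables, and 17, 18 and 16 were tested in the chimera, intrathecal and subcutaneous comparisons. In each, 0 rose and 0 fell by edgeR. Under an unadjusted p of 0.05 were 4 (3 higher, 1 lower), 3 (1 higher, 2 lower) and 3 (1 higher, 2 lower). The shares over all genes tested were 11.6%, 11.5% and 18.2%. The list medians were 0.13, −0.24 and −0.15. Bex2, a small protein of neural and endocrine cells, was at 8.62 and 4.50 CPM with WT hosts against 13.7 and 10.4 with GOF hosts (log2 fold change 0.89 ± 0.29; edgeR adjusted p = 0.249). After intrathecal RTX the groups overlapped in it (−0.45 ± 0.34; edgeR adjusted p = 0.666). Ddc, the enzyme that makes serotonin and dopamine from their precursors, was at 2.72 and 3.94 CPM after intrathecal vehicle and 1.54, 1.68 and 1.23 after RTX (−1.15 ± 0.29; edgeR adjusted p = 0.172).

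Rab3c, a small GTPase of secretory vesicles, was higher in every RTX library by either route, at 0.74 ± 0.26 after intrathecal and 0.72 ± 0.20 after subcutaneous RTX (edgeR adjusted p = 0.344 and 0.152). Bex2 was lower in every subcutaneous RTX library, at −1.16 ± 0.41 (edgeR adjusted p = 0.207). Neurod1, a transcription factor found in neuroendocrine cells, was at 0 in all groups, and Insm1, another, had 4 to 42 counts. Cpe, Meis2, Cplx2 and Rab3c made up 75.4% of the summed level of the list, so few genes carry most of it. The summed level was 122 to 136 CPM in WT and 141 to 159 CPM in GOF recipients. It overlapped in both RTX experiments, at 123 to 131 CPM after intrathecal vehicle and 121 to 130 CPM after intrathecal RTX. By the subcutaneous route it was 120 to 132 CPM after vehicle and 112 to 136 CPM after RTX.

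**Figure D3:**
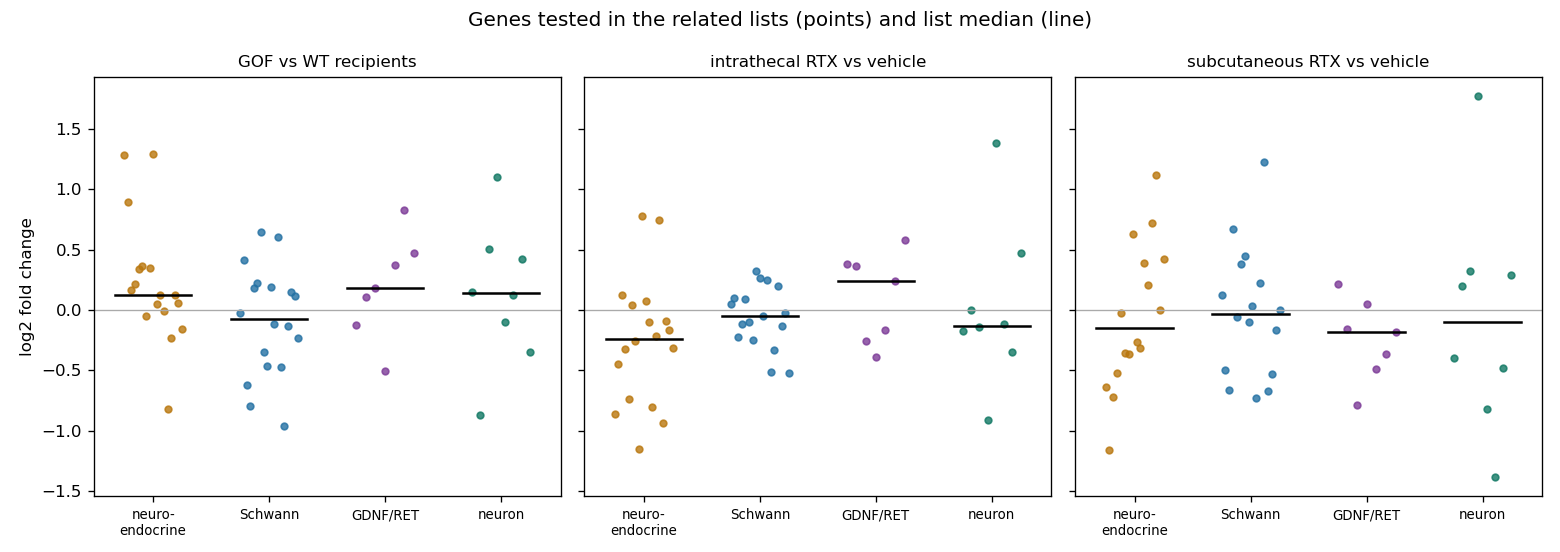
Log2 fold change (y axis) of each tested gene of 4 lists (points, in alphabetical order within a list; x axis) with the list median as a line, in the 3 comparisons. The medians lie between −0.24 and 0.24, and no gene shown passed an adjusted p of 0.05.

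Of 26 Schwann cell genes, 18, 17 and 16 were tested, and 0 rose and 0 fell in each comparison. Under an unadjusted p of 0.05 were 3, 2 and 3 of them, beside 11.6%, 11.5% and 18.2% of all genes tested. The medians were −0.07, −0.05 and −0.03. Scn7a, a sodium channel of glia and other lung cells, was at 276 and 260 CPM after intrathecal vehicle and at 214, 182 and 157 CPM after RTX (−0.53 ± 0.12; edgeR adjusted p = 0.124). Pmp22, a peripheral myelin protein that many cells make, was at 432 and 383 CPM after subcutaneous vehicle and 280, 282 and 293 CPM after RTX (−0.53 ± 0.08; edgeR adjusted p = 0.0947), and Cryab, a small heat shock protein, was at −0.50 ± 0.09 (adjusted p = 0.100). In the chimeras Cryab was at 0.41 ± 0.13 and Egr2, a regulator of myelination that activated macrophages and lymphocytes also express, at −0.80 ± 0.26 (edgeR adjusted p = 0.219 and 0.257). Heart muscle also makes much Cryab. The summed level of the 16 heart muscle markers was 522 and 139 CPM after subcutaneous vehicle and 177, 221 and 171 CPM after RTX, with 16 of 16 negative and a median of −0.82, against a median of 1.14 with GOF hosts. Their part in the Cryab values was not tested. Pmp22, Prx, Scn7a and Cryab made up 77.8% of the summed level of the list.

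Around Gfra3, 7 of 8 genes of GDNF family ligands and their receptors were tested in each comparison, and 0 passed. Gfra2, the receptor chain for neurturin, had 53.4 and 51.9 CPM with WT hosts against 38.0 and 35.5 with GOF hosts (−0.51 ± 0.12; edgeR adjusted p = 0.0912), and at 51.6 and 51.0 CPM after intrathecal vehicle against 41.5, 34.2 and 39.9 CPM after RTX (−0.39 ± 0.10; edgeR adjusted p = 0.158). Nrtn, its ligand, was at 0.83 ± 0.27 with GOF hosts (edgeR adjusted p = 0.229). Ret, the signalling receptor, was at 0.58 ± 0.20 after intrathecal RTX (edgeR adjusted p = 0.323), and Gfra1, the GDNF receptor chain, at −0.79 ± 0.24 after subcutaneous RTX (edgeR adjusted p = 0.169), where Nrtn was at −0.37 ± 0.35 (0.610). Artn, the ligand of GFRA3, had 45 to 116 counts per library, more than Gfra3 in every library.

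Of 20 neuronal genes 8 were tested in each comparison and 0 passed. Stmn2, a microtubule regulator of growing axons, was at 0.42 ± 0.17 in GOF recipients and at −0.35 ± 0.12 after intrathecal RTX (edgeR adjusted p = 0.370 and 0.299). Prph, the intermediate filament peripherin, had 9 and 3 counts after intrathecal vehicle and 13, 18 and 16 after RTX (1.38 ± 0.57; edgeR adjusted p = 0.404), and was at 1.10 ± 0.58 with GOF hosts (0.505). After subcutaneous RTX, Rbfox3, a splicing regulator of neurons, was at −1.39 ± 0.52 and Gap43, a growth cone protein, at −0.40 ± 0.15 (edgeR adjusted p = 0.225 and 0.231). Trpv1, the receptor of RTX, had 0 to 7 counts in all libraries, so the removal of TRPV1-bearing fibres could not be checked in these lung counts.

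For the difference between the RTX effects (subcutaneous minus intrathecal), 0 genes of these 4 lists passed, among 18 neuroendocrine, 17 Schwann cell, 7 GDNF family and 8 neuronal genes tested. The list medians were −0.08, −0.13, −0.51 and −0.15, beside a median over all genes of −0.01. Of the neuroendocrine genes 1 was under an unadjusted p of 0.05, in the positive direction, and 7 Schwann cell genes were (5 positive, 2 negative). The share over all genes tested was 15.2%. Among Schwann cell genes the smallest p-values belonged to Cryab at −0.59 ± 0.14 and Egr2 at 0.79 ± 0.20 (edgeR adjusted p = 0.130 and 0.148). The 16 heart muscle markers had a median of −1.02 in this contrast, with 16 of 16 negative and 0 past the threshold. They mark 1 tissue and are not independent. Their sum was 522 CPM in subcutaneous vehicle library 1, above the 171 to 221 CPM after subcutaneous RTX, but 139 CPM in vehicle library 2, below it. Their part in the Cryab value was not tested. Gfra2 was at 0.45 ± 0.17 and Ret at −0.75 ± 0.30 (edgeR adjusted p = 0.257 and 0.278). Prph was at −2.19 ± 0.74 and P2rx3, an ATP-gated channel of sensory neurons, at 2.69 ± 1.02 (edgeR adjusted p = 0.222 and 0.259).

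**Figure D4:**
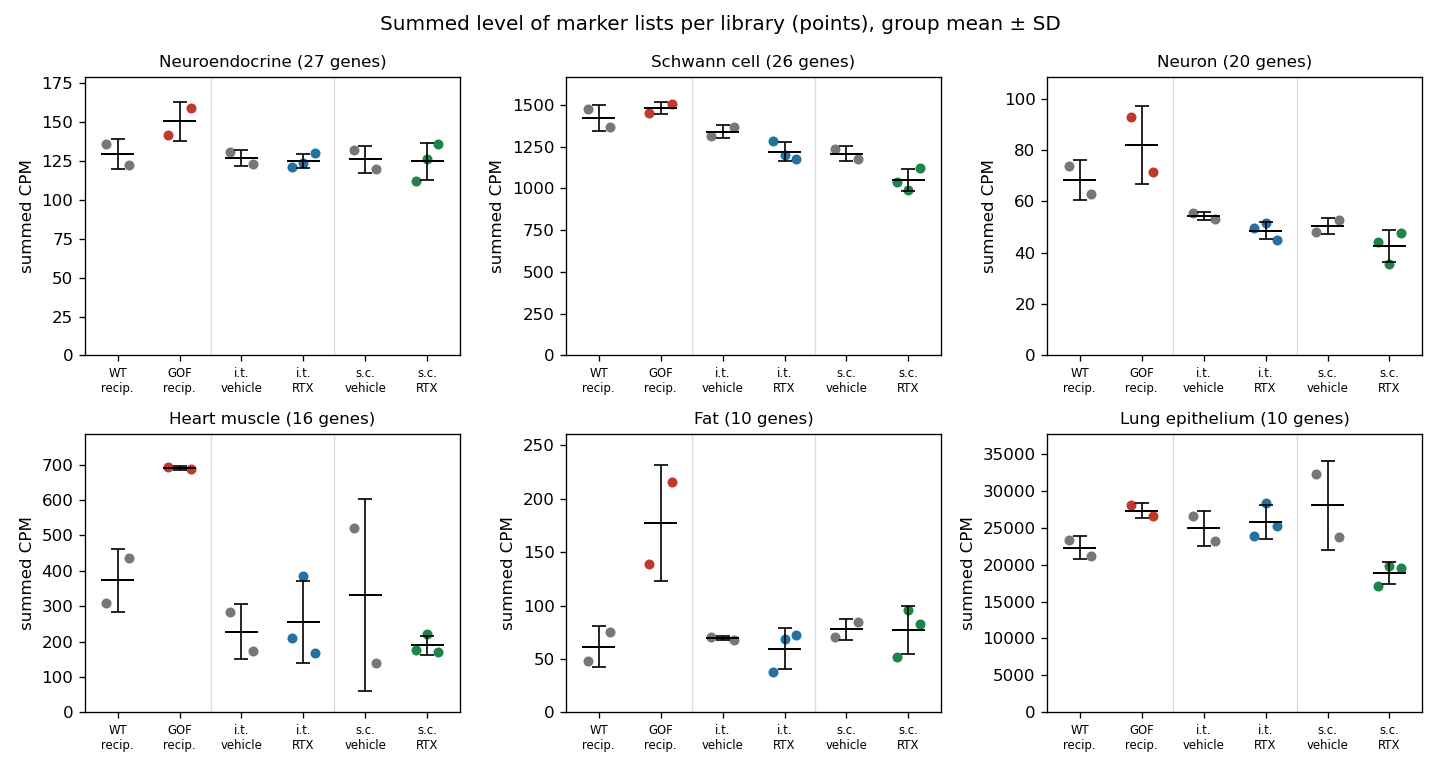
Summed CPM (y axis, linear) of 6 marker lists per library (points), with group mean and ± SD, in the 6 groups (x axis). Heart muscle and fat are highest in GOF recipients, at 687 to 695 and 139 to 215 CPM, and lung epithelium is lowest after subcutaneous RTX, at 17127 to 19860 CPM.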

How the data were processed

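RNA of 14 lung libraries in 3 tables was used. Per the labels' protocols, mRNA was enriched with oligo-dT beads and made into NEBNext Ultra II libraries. Per the submitters' processing notes, FastQC 0.11.8, Trim Galore 0.6.6, STAR 2.7.5b and Salmon 1.2.1 were used with GRCm38. In the sources used here, annotation release and strand setting are not given. Values as deposited are estimated counts per gene, not scaled between libraries (24.2% not whole), which were rounded for testing. Replicates of a group differed beyond counting noise (chi-square per degree of freedom 8.91 to 21.3). Positions and exon lengths came from GENCODE M21 by identifier, of which 53307 of 54347 matched in version. Promoter windows were RefSeq's.

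CPM used each column's total. A separate model per experiment was run in edgeR 4.0.16 under R 4.3.3. It used filterByExpr (at least 10 counts, total 15), TMM factors and the robust quasi-likelihood test, with Benjamini-Hochberg adjustment over all genes tested and a threshold of 0.05. Intervals are 95% intervals. Library state was set at 2 CPM of Rps3a2 or Hmga2, and its term was added after the data were seen. Alternatives were other scalings and filters, DESeq2 1.42.0, limma 3.58.1 voom, a joint fit of 14 libraries, a replicate block, and each library left out. Lists with no gene past the threshold are represented by the 2 smallest p-values per comparison, and genes like a member were sought where it had at least 50 counts on average (log2 of CPM + 0.5). A few further genes are named as background markers, and some genes that the rule names are not reported here. The members and lists were chosen with earlier results of these data known. The test was tried on simulated data.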

Additional observations from a re-analysis of the deposited data

How the results depend on the processing

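No alternative called a member: the counts stayed at 0 in all 4 comparisons under each setting run. Most gene-level directions held. Scg5 in the chimeras ranged from −0.65 to 0.045 with single libraries left out, Resp18 in the intrathecal comparison from −0.54 to 0.36, and Scg5 in the difference between RTX effects from −0.51 to 0.018. Resp18 in the intrathecal comparison was 0.37 with library state as a term, where the state effect is estimated from the other experiments. The cause was not tested.

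Counts over all genes depended on the setting. For the chimeras 124 became 807 without the filter, 305 with DESeq2, 45 with limma voom and 50 with all 14 libraries in 1 fit, and 83 to 919 with single libraries left out (919 without WT recipient 1, 303 without WT recipient 2). For intrathecal RTX 54 became 655 without the filter, 254 with DESeq2, 7 with all 14 libraries and 5 with library state, and 19 to 40 with single libraries left out. For subcutaneous RTX 0 became 807 without the filter, 761 with DESeq2, 71 with all 14 libraries and 184 with library state, and 0 to 871 with single libraries left out (871 without vehicle library 2). For the difference between RTX effects 10 became 147 without the filter, 312 with DESeq2, 0 with all 14 libraries and 6 with library state, and 0 to 90 with single libraries left out. With 1 library left in a group, that library is assumed to vary like the others.

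The replicate block (the labels' numbers as pairs) called 123, 50, 0 and 7 genes and 0 members. Deviations of same-numbered libraries correlated at 0.02 in the chimeras and between −0.25 and −0.07 in the RTX experiments. With 2 libraries in a group, their deviations from the group mean mirror each other. A library thus correlates with both libraries of such a group at the same value with opposite sign. The check therefore cannot decide whether libraries were paired or shared a batch. Depth limits Chga, Sox10 and Gfra3 most, with at most 12 counts per library.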
